A study of Mus musculus with 10 samples.

Results

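RNA of J1 mouse embryonic stem cells depleted of Ino80c was compared with RNA of the same cells depleted of Ino80e, both of them subunits of the chromatin remodelling complex INO80. The comparison used the 4 arrays labelled as Ino80c or Ino80e knockdown, 2 of each, out of 10 arrays in the series. These 4 arrays filled 1 slide, with the Ino80c arrays at positions 1 and 2 and the Ino80e arrays at positions 3 and 4, so that position and knockdown cannot be told apart. J1 is an established line with no transgene given in the labels. The Ino80c group received siRNA (small interfering RNA, which directs the breakdown of a matching transcript) against Ino80c, and the Ino80e group received siRNA against Ino80e. The other groups, with 2 arrays each, were Ino80 and Ino80b knockdowns, which shared another slide, and cells given a non-targeting siRNA (NT), on a slide of their own. Cells were kept in ESGRO medium, moved to M15 medium for transfection and collected 96 hours (day 4) after it. The 2 samples of a group are called biological replicates in the design text.

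INO80 is built around the ATPase Ino80 and uses ATP to move nucleosomes and to exchange histone variants. Ino80c and Ino80e are small accessory subunits without ATPase activity, and Yy1, a DNA-binding transcription factor, associates with the complex. In mouse embryonic stem cells INO80 is known to occupy the promoters of pluripotency genes together with the factors that keep these cells self-renewing. Setting 1 subunit against another asks whether the cells responded alike to the loss of either.

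Bmp4, Ankrd33b and Igdcc4 were, beyond the target itself, the genes called at an adjusted p under 0.05 with a measurable level in both knockdowns. The 250 bases before their start sites are shown because Yy1 recognises a short motif at promoters. The sequences are those of RefSeq on build GRCm38.p6, written 5′ to 3′ on the strand of the gene, with a match to the Yy1 core GCCATNTT on either strand in capitals. The motif was found in 6.23% of the 300-base windows (250 bases before to 50 after the start) of 27025 genes. The TATA sequence TATAAA was found in 14.2% of them, and in none of these 3 windows.
Bmp4, chr14:46390670-46390919, minus strand: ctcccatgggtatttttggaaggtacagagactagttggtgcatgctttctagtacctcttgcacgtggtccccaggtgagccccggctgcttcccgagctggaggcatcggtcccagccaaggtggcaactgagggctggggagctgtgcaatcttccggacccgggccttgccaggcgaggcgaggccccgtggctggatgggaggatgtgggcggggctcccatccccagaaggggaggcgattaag
Ankrd33b, chr15:31367760-31368009, minus strand: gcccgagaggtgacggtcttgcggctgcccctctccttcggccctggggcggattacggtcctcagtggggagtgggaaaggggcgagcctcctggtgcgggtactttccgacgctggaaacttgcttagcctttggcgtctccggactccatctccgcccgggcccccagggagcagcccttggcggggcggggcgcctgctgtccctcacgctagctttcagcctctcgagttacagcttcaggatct
Igdcc4, chr9:65101236-65101485, plus strand: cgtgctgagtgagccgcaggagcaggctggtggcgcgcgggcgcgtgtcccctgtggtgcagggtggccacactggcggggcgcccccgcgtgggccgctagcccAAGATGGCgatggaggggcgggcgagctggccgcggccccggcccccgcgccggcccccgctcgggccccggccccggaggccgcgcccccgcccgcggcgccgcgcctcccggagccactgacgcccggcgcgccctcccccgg
The Igdcc4 window held 1 Yy1 match, and the Bmp4 and Ankrd33b windows held none. GC content was 84.7% in the Igdcc4 window, 64% in that of Bmp4 and 66% in that of Ankrd33b, against a median of 52.7% over all windows.

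Levels are log2 signals relative to the 75th percentile of the array, so a level of 0 is that percentile, and differences are Ino80c minus Ino80e on the log2 scale. Errors of differences (±) are standard errors of a limma fit to all 10 arrays, with n = 2 arrays in each group. Across genes, which are not independent replicates, replicate arrays correlated with r = 0.992 in the Ino80c and 0.991 in the Ino80e knockdown, and arrays of different knockdowns on this slide with r between 0.985 and 0.990. The share of probes well above background ranged from 66.4% to 74.9% over these 4 arrays. All 10 embryonic stem cell markers, among them Pou5f1, Sox2 and Nanog, were well above background on all 4.

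The siRNA targets were lower in the samples named for them. Ino80c had levels of -1.25 and -1.45 in Ino80c knockdowns, against 1.48 and 1.53 in Ino80e knockdowns. Both Ino80c knockdown arrays lay below all 8 other arrays of the series, which ranged from 0.83 to 1.53. Ino80c RNA fell by 2.85 ± 0.16 on the log2 scale, 7.24-fold (limma, adjusted p = 0.00527; 95% interval -3.22 to -2.49), and a further probe of the gene differed by -1.63. The probe used lies at chromosome 18, 24491086 to 24491145, on build mm7. The call was lost in the fit to these 4 arrays alone (-2.85, adjusted p = 0.118), without Ino80c replicate 2 (-2.76, adjusted p = 0.0881) and without Ino80e replicate 1 or 2 (-2.88 and -2.83, adjusted p = 0.0646 and 0.142).

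Ino80e had levels of 5.11 and 4.42 in Ino80c knockdowns, against 3.64 and 3.41 in Ino80e knockdowns. The 2 Ino80e knockdown arrays were the lowest of all 10, and the groups did not overlap. The difference was 1.25 ± 0.28, 2.37-fold, and did not pass the adjusted threshold (limma, adjusted p = 0.16; 95% interval 0.60 to 1.89). With normexp background correction it did pass (1.24, adjusted p = 0.0462). It also passed in limma with replicate number as a further term (adjusted p = 0.041), a pairing that was not adopted. The probe lies at chromosome 7, 122948998 to 122949057, on mm7. Against NT, on another slide, Ino80c RNA differed by -2.34 ± 0.16 in its own knockdown (limma, adjusted p = 0.0108) and Ino80e RNA by -1.20 ± 0.28 in its own (adjusted p = 0.0817). Whether the depth of depletion moved with the differences below was not tested.

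**Figure D1:**
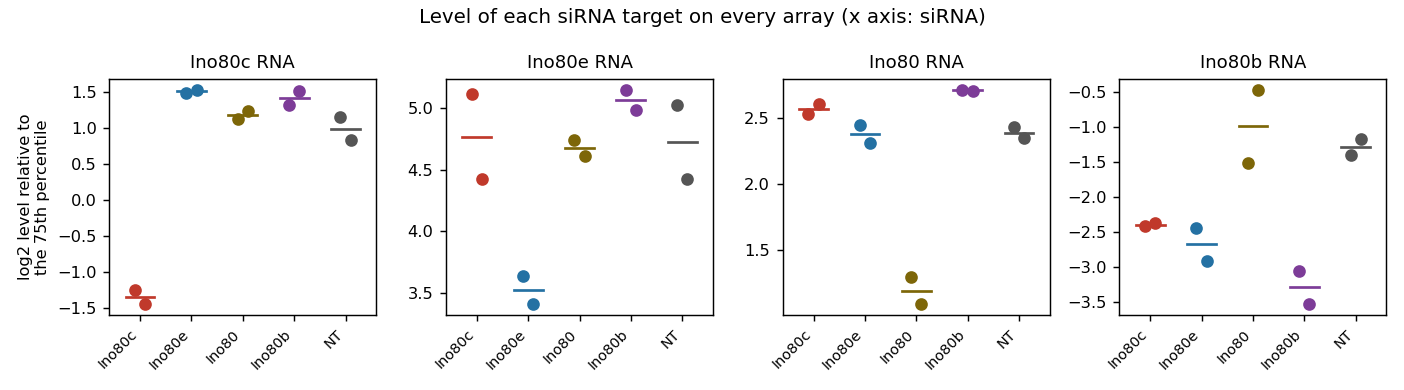
Level of the 4 siRNA targets on every array (y axis, log2 relative to the 75th percentile of the array; x axis, siRNA given), with 1 point per array and a bar at the mean of 2. Ino80c RNA is near -1.35 in its own knockdown and above 0.8 elsewhere, and Ino80e RNA is lowest in its own knockdown.

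No other subunit was called. Of 16 listed INO80 members 15 were tested, and the 11 members that no siRNA targeted differed by between -0.17 and 0.18, each with an unadjusted p above 0.05. They include the AAA+ ATPases Ruvbl1 (-0.04 ± 0.12) and Ruvbl2 (-0.17 ± 0.14), the actin-related proteins Actr5 (0.02 ± 0.18), Actr8 (-0.14 ± 0.12) and Actl6a (-0.17 ± 0.12), the deubiquitinase Uchl5 (-0.07 ± 0.15) and Yy1 (0.18 ± 0.15). The ATPase gene Ino80 differed by 0.19 ± 0.13 (limma, adjusted p = 0.677), with other probes at 0.51, and Ino80b by 0.28 ± 0.35 (adjusted p = 0.854). Ino80d was not tested.

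Of 20663 genes 7 were called (0.0339%), with 3 higher (0.0145%) and 4 lower (0.0194%) in the Ino80c than in the Ino80e knockdown (limma, Benjamini-Hochberg, adjusted p under 0.05). At an unadjusted p under 0.05 there were 2211 genes (10.7%), 1454 higher (7.04%) and 757 lower (3.66%), so that 65.8% were higher. With normexp background correction the higher share was 37.7%, with quantile normalization 50.4% and with the authors' values 52.3%. On the slide they shared, the Ino80 against the Ino80b knockdown gave 14 calls (0.0678%). The highest adjusted p among called genes was 0.0387 and the lowest among the others 0.0565, and 106 genes had an adjusted p under 0.1. The arrays of the knockdowns did not overlap in 26.1% of genes on the higher and 20% on the lower side, which is the background for every gene below whose groups are said not to overlap. The count was not stable, and it moved whichever array was left out. Leaving out an array also takes its group out of the shared estimate of the spread and lowers the residual degrees of freedom. For NT, Ino80 and Ino80b, which do not enter the comparison, the count was the same whichever replicate was left out. Those changes therefore do not show dependence on a single array. The count was 0 (2714 at an unadjusted p under 0.05) in the limma fit to the 4 arrays alone. It was larger in other settings. Quantile normalization gave 26 calls, only probes well above background on all 10 arrays 78, and a trended, robust prior 129. Normexp gave 158, the authors' values 165, array weights 245 and replicate number as a further term 302.

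**Figure D2:**
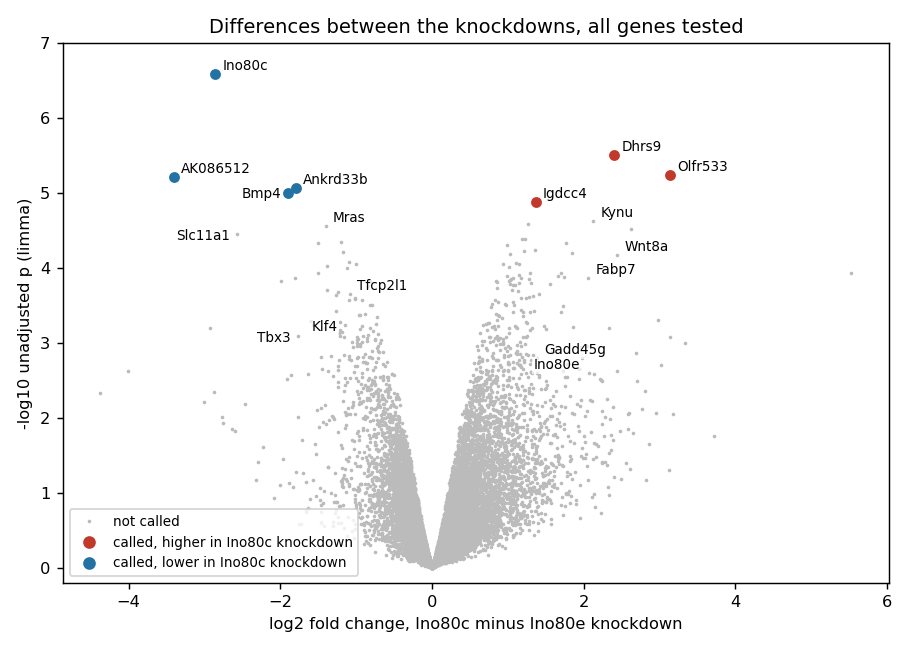
Each of 20663 genes by its log2 difference, Ino80c minus Ino80e knockdown (x axis), and the negative log10 of its unadjusted limma p (y axis). The 7 called genes are coloured, Ino80c itself is the highest point, and Kynu, Mras, Slc11a1 and Wnt8a are among the points just below the called ones.

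Bmp4, a secreted growth factor that acts with leukaemia inhibitory factor to keep mouse embryonic stem cells undifferentiated, had levels of 0.44 and 0.27 in Ino80c knockdowns, against 2.20 and 2.29 in Ino80e knockdowns. The groups did not overlap, and the Ino80 (0.20 and -0.05) and Ino80b (0.51 and 0.47) knockdowns lay with Ino80c, whereas the NT arrays (2.54 and 2.96) lay with Ino80e. Bmp4 fell by 1.90 ± 0.17, 3.72-fold (limma, adjusted p = 0.0339). Its probe lies at chromosome 14, 41704207 to 41704266 (mm7).

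Ankrd33b, which encodes an ankyrin repeat protein, had levels of -1.59 and -1.85 in Ino80c knockdowns, against -0.01 and 0.15 in Ino80e knockdowns. The Ino80 (-2.74 and -2.84) and Ino80b (-2.22 and -1.98) knockdowns were lower still, and NT (-0.25 and -0.47) was close to Ino80e. Ankrd33b fell by 1.79 ± 0.16, 3.46-fold (limma, adjusted p = 0.0339; probe at chromosome 15, 31408022 to 31408081, mm7).

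Igdcc4, a cell-surface protein of the immunoglobulin superfamily, went the other way, with levels of 0.42 and 0.68 in Ino80c knockdowns against -0.82 and -0.80 in Ino80e knockdowns. The Ino80c arrays were the highest of the 10, with Ino80b next (-0.07 and -0.09) and NT at -0.68 and -0.66. Igdcc4 rose by 1.37 ± 0.13, 2.58-fold (limma, adjusted p = 0.0387; probe at chromosome 9, 65167156 to 65167215, mm7). The Bmp4, Ankrd33b and Igdcc4 calls were each lost in the fit to the 4 arrays alone, without the filter on dim probes and without any single array other than an NT array (adjusted p between 0.0663 and 0.271), with differences that kept their sign.

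The other 3 called genes were dim. Each was kept by the filter on dim probes through the knockdown in which it was bright. Its adjusted p is therefore not independent of that filter and is given as a description only. Dhrs9, a short-chain dehydrogenase, had levels of -5.44 and -5.68 in Ino80c knockdowns and was not well above background in Ino80e knockdowns (-7.73 and -8.21), which makes it at least 1.39-fold higher (adjusted p = 0.0311). Olfr533, an olfactory receptor gene, had levels of -4.84 and -5.25 in Ino80c knockdowns and was not well above background in Ino80e knockdowns (-8.30 and -8.06), and was at least 1.98-fold higher (adjusted p = 0.0311). The transcript AK086512 was not well above background in Ino80c knockdowns (-7.98 and -8.01), had levels of -4.52 and -4.67 in Ino80e knockdowns, and was at least 2.73-fold lower in Ino80c knockdowns (adjusted p = 0.0311). In each of these bounds the brighter group's mean was set against the lowest signal well above background on the arrays of the dimmer group. With normexp background correction the differences shrank to 0.14, 0.27 and -0.58 and none of the 3 was called. Without the filter on dim probes another Dhrs9 probe stood for the gene, with a difference of -0.98.

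**Figure D3:**
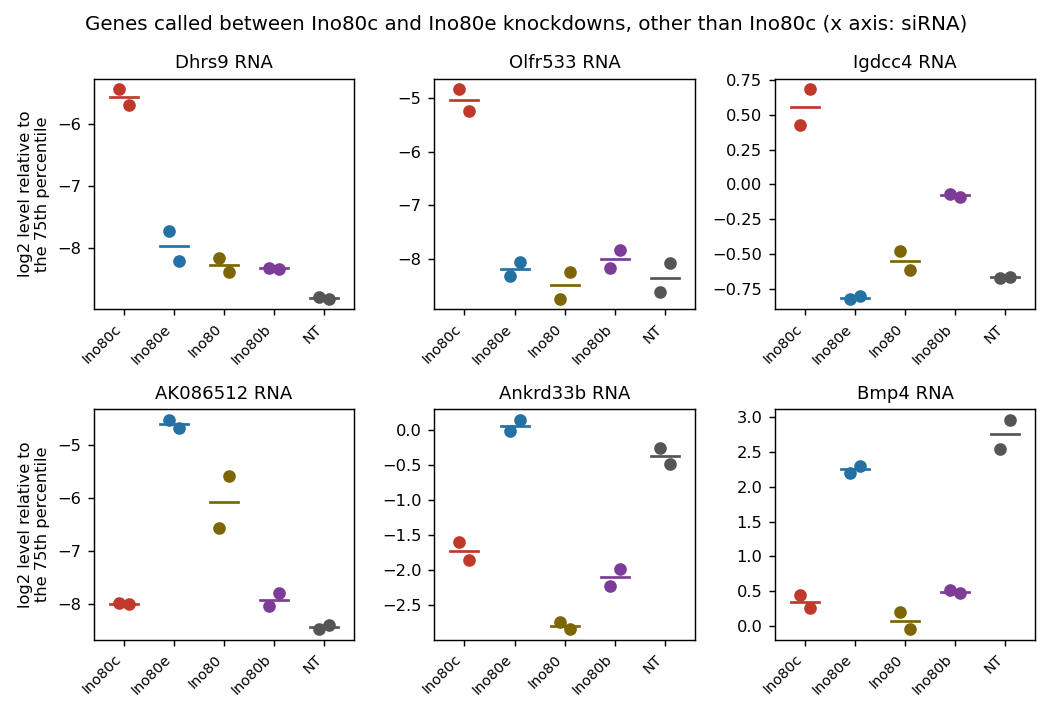
Level of the 6 called genes other than Ino80c on every array (y axis, log2 relative to the 75th percentile; x axis, siRNA given), with 1 point per array and a bar at the mean of 2. Bmp4 and Ankrd33b are low in the Ino80c, Ino80 and Ino80b knockdowns and high in Ino80e and NT, whereas Dhrs9 and Olfr533 are highest on the Ino80c arrays.

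Genes just outside the threshold (adjusted p between 0.0565 and 0.0568) are given with values only. On the higher side were Kynu, the kynureninase of tryptophan breakdown (2.13 ± 0.22), Alox5, the lipoxygenase that starts leukotriene synthesis (1.27 ± 0.13, other probes 1.11 and 1.20), Tmem200a (1.22 ± 0.14) and Tnfsf11, the cytokine that drives osteoclast formation (1.18 ± 0.13). 4933428D01Rik was not well above background in the Ino80e knockdown and was at least 4.92-fold higher in the Ino80c knockdown. On the lower side were Slc11a1, a metal ion transporter (-2.56 ± 0.29), Mras, a Ras-family GTPase (-1.40 ± 0.15), Kank4 (-1.19 ± 0.14) and Dmbx1, a homeobox gene of the brain (-1.50 ± 0.17), of which a further probe gave -0.04. Slc11a1 had levels of -4.18 and -3.57 in Ino80c knockdowns, against -1.47 and -1.16 in Ino80e knockdowns. As for Bmp4, its levels in the Ino80 (-4.29 and -4.08) and Ino80b (-4.44 and -3.96) knockdowns were near those of Ino80c, and its NT levels (-0.87 and -0.36) near those of Ino80e.

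The lists here and below were chosen with earlier results of these data known. Their shares, set against those of all genes, are therefore descriptions only. Pluripotency genes leaned lower in the Ino80c knockdown. Of 41 tested, none passed the adjusted threshold, 12 were lower and 2 higher at an unadjusted p under 0.05 (29.3% and 4.88%, against 3.66% and 7.04% of all genes), and the median difference was -0.12, against 0.02 for all genes. The lower count fell when Ino80e replicate 2 was left out, and so did the lower share of all genes. Such shares differ between settings, here and below: 3.81% higher and 6.3% lower with normexp, 5.57% and 5.48% with quantile normalization. A count from another setting is therefore not to be read against 7.04% and 3.66%. The naive transcription factor Tfcp2l1 had levels of -0.82 and -0.53 in Ino80c knockdowns, against 0.40 and 0.41 in Ino80e knockdowns (-1.08 ± 0.16, adjusted p = 0.0678). Klf4, a reprogramming factor, had levels of 4.55 and 4.53 in Ino80c knockdowns, against 5.64 and 5.73 in Ino80e knockdowns (-1.15 ± 0.20, adjusted p = 0.1). Neither gene overlapped between the groups, and the Klf4 levels of the Ino80e knockdown were close to those of NT (5.63 and 5.73).

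The T-box factor Tbx3 had levels of 1.03 and 1.55 in Ino80c knockdowns, against 2.80 and 3.30 in Ino80e knockdowns (-1.76 ± 0.32, adjusted p = 0.111), and a further probe gave -0.61. Tet2, which oxidises methylcytosine, differed by -0.83 ± 0.17 (adjusted p = 0.136). The naive factor Esrrb (-1.05 ± 0.28), Zfp42 (-0.80 ± 0.19) and Nanog (-0.75 ± 0.20) were also lower at an unadjusted p under 0.05, as were Tdh, Tcl1, Klf5, Nr0b1 and Nr5a2, whereas Mycn (0.45 ± 0.12) and the ligand Gdf3 (0.37 ± 0.14) were higher. The core factors Pou5f1 and Sox2 differed by -0.09 each, with unadjusted p above 0.05. In bulk RNA, fewer cells that express a gene and less of its RNA per cell cannot be told apart.

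Genes of the primed epiblast, the state after implantation in which cells are poised to differentiate, leaned the other way. Of 22 tested, none passed the adjusted threshold, and 11 were higher and 0 lower at an unadjusted p under 0.05 (50%, against 7.04% of all genes), with a median of 0.51 and 7 higher without Ino80c replicate 2. The ligand Wnt8a had levels of -1.06 and -0.43 in Ino80c knockdowns, against -3.18 and -3.19 in Ino80e knockdowns (2.44 ± 0.30, adjusted p = 0.0578). The groups did not overlap, and the NT arrays lay between them (-2.29 and -2.60). The zinc finger factor Sall2 differed by 0.87 ± 0.13 (adjusted p = 0.074), the activin antagonist Fst by 1.29 ± 0.23 (adjusted p = 0.102) and the de novo DNA methyltransferase Dnmt3b by 0.59 ± 0.11 (adjusted p = 0.117). Fst had levels of -2.09 and -2.02 in Ino80c knockdowns, against -3.13 and -3.56 in Ino80e knockdowns, with NT at -2.32 and -2.66. Further members higher at an unadjusted p under 0.05 were the transcription factors Pou3f1 (1.02 ± 0.22), Sox3 (1.02 ± 0.29), Otx2 (0.41 ± 0.13) and Sox4 (0.52 ± 0.20), the ligand Nodal (0.67 ± 0.18), the kinase Pim2 (0.80 ± 0.24) and the methyltransferase Dnmt3a (0.75 ± 0.22).

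The BMP list (26 tested) had 4 genes higher and 3 lower at an unadjusted p under 0.05 (15.4% and 11.5%, against 7.04% and 3.66% of all genes), the called ligand Bmp4 among the lower ones. The receptor Bmpr1b differed by 1.18 ± 0.19 (adjusted p = 0.0845), with levels of -4.28 and -4.04 in Ino80c knockdowns, against -5.43 and -5.24 in Ino80e knockdowns. The ligand Bmp8b differed by 0.44 ± 0.12 (adjusted p = 0.255). Smad9, a transducer of BMP signals, had levels of -7.07 and -5.94 in Ino80c knockdowns, against -3.49 and -3.98 in Ino80e knockdowns (-2.77 ± 0.79, adjusted p = 0.254). It counts among the 3 lower genes although it was well above background on only 1 of the 2 Ino80c arrays, so the size of its difference is not firm. The higher count was 2 in the fit to the 4 arrays alone, with the median of kept probes as scale, and without any 1 of Ino80b replicates 1 and 2, Ino80c replicates 1 and 2 and Ino80e replicate 1. The lower count was 5 with that scale or array weights and 6 with normexp or quantile normalization.

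Endoderm genes leaned lower, with 9 of 27 tested lower and 1 higher at an unadjusted p under 0.05 (33.3% and 3.7%, against 3.66% and 7.04% of all genes), none past the adjusted threshold, and a median of -0.22. They include regulators of primitive endoderm, the yolk sac lineage: Gata6 (-0.81 ± 0.19, adjusted p = 0.183, other probes -0.38 and -0.14), Sox7 (-1.08 ± 0.25, adjusted p = 0.169) and the receptor Pdgfra (-0.93 ± 0.20, adjusted p = 0.16). Other transcription factors of the list, Gata4 (-0.22 ± 0.23), Sox17 (-0.62 ± 0.26), Foxa2 (-0.41 ± 0.32) and Hnf4a (-0.07 ± 0.21), had an unadjusted p above 0.05. Gata6 had levels of -1.03 and -0.65 in Ino80c knockdowns, against -0.15 and 0.09 in Ino80e knockdowns, whereas the Ino80 knockdown was at -3.54 and -3.16. Of the basement membrane genes in the list, Col4a2 (-0.62 ± 0.15), Col4a1 (-0.47 ± 0.16) and Lama1 (-0.70 ± 0.18) were lower at an unadjusted p under 0.05, whereas Lamb1 (0.17 ± 0.19), Lamc1 (-0.07 ± 0.12) and Sparc (0.10 ± 0.24) had a larger p. The endocytic receptor Lrp2 was higher (0.82 ± 0.32). The 6 primitive endoderm markers were well above background on all 4 arrays, with a summed linear level (in units of the 75th percentile) of 1.87 and 2.34 in Ino80c knockdowns, against 3.16 and 3.79 in Ino80e knockdowns and 2.85 and 2.496 in NT.

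Trophectoderm genes, of the outer layer that forms the placenta, divided, with 5 of 30 higher (8 with array weights) and 5 lower at an unadjusted p under 0.05 (16.7% each, against 7.04% and 3.66% of all genes). The connexin Gjb5 (-1.10 ± 0.14, adjusted p = 0.059) and the lectin Lgals3 (-0.98 ± 0.18) were on the lower side, and the growth factor receptor Fgfr2 (1.01 ± 0.13, adjusted p = 0.059) on the higher. Gjb5 had levels of -0.23 and -0.32 in Ino80c knockdowns, against 0.81 and 0.83 in Ino80e knockdowns. The trophectoderm cell type markers Cdx2 (0.24), Gata3 (1.88), Krt7 (-0.04) and Hand1 (0.30) had unadjusted p above 0.05, and the marker Elf5 was not tested. Gata3 was well above background on only 3 of the 4 arrays. Of 27 primitive streak and mesoderm genes 2 were higher (7.41%) and 3 lower (11.1%). The higher count was 0 without Ino80c replicate 1 or Ino80e replicate 2, and the lower count was 6 without Ino80e replicate 1, 6 with normexp and 7 with quantile normalization. The ligands Wnt3a (-1.38 ± 0.30, adjusted p = 0.159) and Wnt3 (1.24 ± 0.41, adjusted p = 0.321) stood on opposite sides.

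Neuroectoderm genes gave 5 of 25 higher and 3 lower at an unadjusted p under 0.05 (20% and 12%, against 7.04% and 3.66% of all genes), with 1 lower without Ino80e replicate 2. Fabp7, a fatty acid binding protein of radial glia, had levels of -3.28 and -3.10 in Ino80c knockdowns, against -5.03 and -5.47 in Ino80e knockdowns (2.06 ± 0.28, adjusted p = 0.059). Neurod1, a neuronal bHLH factor, differed by 1.26 ± 0.21 (adjusted p = 0.1), the Notch ligand Dll1 by 0.96 ± 0.19 and the homeobox factor En2 by -0.85 ± 0.20. The median of the neuroectoderm list was 0. Its cell type markers Sox1 (0.34), Pax6 (-0.08) and Nes (0.10) had unadjusted p above 0.05, and the marker Pax3 was not tested. Of 24 Hox genes tested 4 were higher (16.7%, against 7.04% of all genes) and 0 lower. The higher count was 2 with normexp (against 3.81% of all genes). Without the filter on dim probes it was 7 of 38 tested (against 5.76% of all genes). Hoxa13 counts among the 4 although it was not well above background in Ino80e knockdowns, and was at least 2.55-fold higher. Hoxb2 (1.94 ± 0.42, adjusted p = 0.156) had levels of -3.74 and -2.66 in Ino80c knockdowns, against -5.34 and -4.95 in Ino80e knockdowns.

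Among 32 targets of p53, the DNA damage response factor, 9 were higher and 1 lower at an unadjusted p under 0.05 (28.1% and 3.12%, against 7.04% and 3.66% of all genes), none past the adjusted threshold, with a median of 0.16. The death receptor Fas differed by 0.64 ± 0.11 (adjusted p = 0.108), the pro-apoptotic Pmaip1 by 0.81 ± 0.16, the stress sensor Gadd45g by 1.38 ± 0.28 and the antiproliferative Btg2 by 0.66 ± 0.13 (adjusted p = 0.136 to 0.139). Pmaip1 had levels of 2.86 and 2.89 in Ino80c knockdowns, against 2.10 and 2.03 in Ino80e knockdowns and 2.23 and 1.80 in NT. In the cell cycle list 45 of 47 genes had an unadjusted p above 0.05. The exceptions were the cyclin Ccnd3 (-0.75 ± 0.14, adjusted p = 0.112), with levels of 2.99 and 2.93 in Ino80c knockdowns against 3.71 and 3.71 in Ino80e knockdowns, and the CDK inhibitor Cdkn2b (0.58 ± 0.17). Of the 47 differences 40 were below 0, with a median of -0.10, or -0.04 with quantile normalization.

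Of 31 imprinted genes, which are expressed from 1 parental allele, 9 were higher and 2 lower at an unadjusted p under 0.05 (29% and 6.45%, against 7.04% and 3.66% of all genes). The lower count was 0 without Ino80c replicate 1 or 2 or Ino80e replicate 2, and 1 without Ino80e replicate 1 or either Ino80b array. Magel2 had levels of 0.18 and 0.18 in Ino80c knockdowns, against -0.71 and -0.89 in Ino80e knockdowns (0.98 ± 0.15, adjusted p = 0.0766). Dlk1 (0.78 ± 0.12, adjusted p = 0.0798), Rian (0.94 ± 0.24) and Mirg (1.03 ± 0.29), which belong to 1 imprinted cluster, were on the higher side, as was the CDK inhibitor Cdkn1c (0.86 ± 0.16, adjusted p = 0.111). Dlk1 had levels of 1.85 and 2.00 in Ino80c knockdowns, against 1.12 and 1.16 in Ino80e knockdowns, and neither Dlk1 nor Magel2 overlapped between the groups.

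Genes of the 2-cell-like state, a rare state that resembles the early embryo, gave 7 of 10 tested higher and 0 lower at an unadjusted p under 0.05 (70%, against 7.04% of all genes), with a median of 0.63. A further 15 listed genes were not tested. The higher genes include the deubiquitinase gene Usp17lb (0.81 ± 0.22, adjusted p = 0.222) and the zinc finger gene Zfp352 (0.88 ± 0.31), and several belong to families of near-identical copies, so that a probe may read any copy. The count was 1 without Ino80c replicate 1, 1 without Ino80e replicate 2 4 without either Ino80b array, and 4 with normexp or quantile normalization. Of 38 germline genes 9 were higher and 1 lower (23.7% and 2.63%, against 7.04% and 3.66% of all genes), led by Taf7l (0.94 ± 0.18) and the piRNA-pathway gene Piwil4 (0.95 ± 0.19), with Kit, a receptor kinase, at -1.31 ± 0.37. The higher count was 4 without Ino80c replicate 2, 4 without Ino80e replicate 1, and 5 with normexp or quantile normalization.

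Of 28 fibroblast genes, listed because feeder cells can accompany stem cell cultures, 9 were higher and 0 lower at an unadjusted p under 0.05 (32.1%, against 7.04% of all genes), with a median of 0.45. The collagen Col5a2 had levels of -3.88 and -3.74 in Ino80c knockdowns, against -4.72 and -5.10 in Ino80e knockdowns (1.10 ± 0.15, adjusted p = 0.059), and the NT arrays (-4.12 and -4.02) lay between. Cald1 differed by 0.95 ± 0.21 and the proteoglycan Dcn by 1.41 ± 0.32. The count was 5 with normexp background correction, where 3.81% of all genes were higher. It also fell without Ino80c replicate 1. Of 10 fibroblast markers 7 were well above background on all 4 arrays and Lum on none. Their summed linear level was 19.17 and 16.03 in Ino80c knockdowns, against 17.23 and 13.89 in Ino80e knockdowns and 25.77 and 22.39 in NT, and most of it came from Acta2, which differed by 0.19 with an unadjusted p above 0.05. Without Acta2, left out after the values were seen, the sum was 1.959 and 1.944 in Ino80c knockdowns, against 1.733 and 1.934 in Ino80e knockdowns and 1.483 and 1.697 in NT. Of the 9 markers tested, Dcn, Col3a1 and Postn were higher at an unadjusted p under 0.05, and the median difference was 0.63. Postn, which also counts among the 9 higher fibroblast genes, and Prrx1 were each well above background on only 2 of the 4 arrays. The sizes of their differences are therefore not firm. The part of these markers in the differences was not tested.

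Glycolysis and hypoxia genes leaned lower, with 6 of 33 lower and 0 higher at an unadjusted p under 0.05 (18.2%, against 3.66% of all genes) and a median of -0.23. Ndrg1, induced by hypoxia, had levels of 0.40 and 0.45 in Ino80c knockdowns, against 1.19 and 1.42 in Ino80e knockdowns (-0.88 ± 0.21, adjusted p = 0.181), and the growth factor Vegfa differed by -0.96 ± 0.35 (adjusted p = 0.385). The count was 3 without either Ino80b array, 3 without Ino80c replicate 1 and 1 without Ino80e replicate 2. Of 32 cholesterol synthesis genes 4 were lower and 1 higher (12.5% and 3.12%, against 3.66% and 7.04% of all genes), a lower count that was 0 without Ino80c replicate 2 or Ino80e replicate 1, 1 without Ino80c replicate 1 or either Ino80b array, and 2 without Ino80e replicate 2. Of 34 interferon genes 4 were lower and 1 higher (11.8% and 2.94%, against 3.66% and 7.04% of all genes), the latter Tap1 (0.76 ± 0.19). That lower count of interferon genes fell whichever array was left out, and was 1 in the fit to the 4 arrays alone. Among 35 integrated stress response genes 1 was higher and 2 lower (2.86% and 5.71%, against 7.04% and 3.66% of all genes). Among 26 histone genes 0 were higher and 1 lower (0% and 3.85%). Among 45 genes of the remodellers BAF, NuRD, ISWI and TIP60 0 were higher and 1 lower (0% and 2.22%), the BAF subunit Smarcd3 at -0.82 ± 0.17. Across the lists, counts of 3 or fewer genes moved by up to 3 genes when 1 array was left out. None of the 80 ribosomal protein genes reached an unadjusted p under 0.05 in limma. Of their differences 77 were nevertheless below 0, with a median of -0.10 against 0.02 for all genes. With quantile normalization that median was -0.0041.

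**Figure D4:**
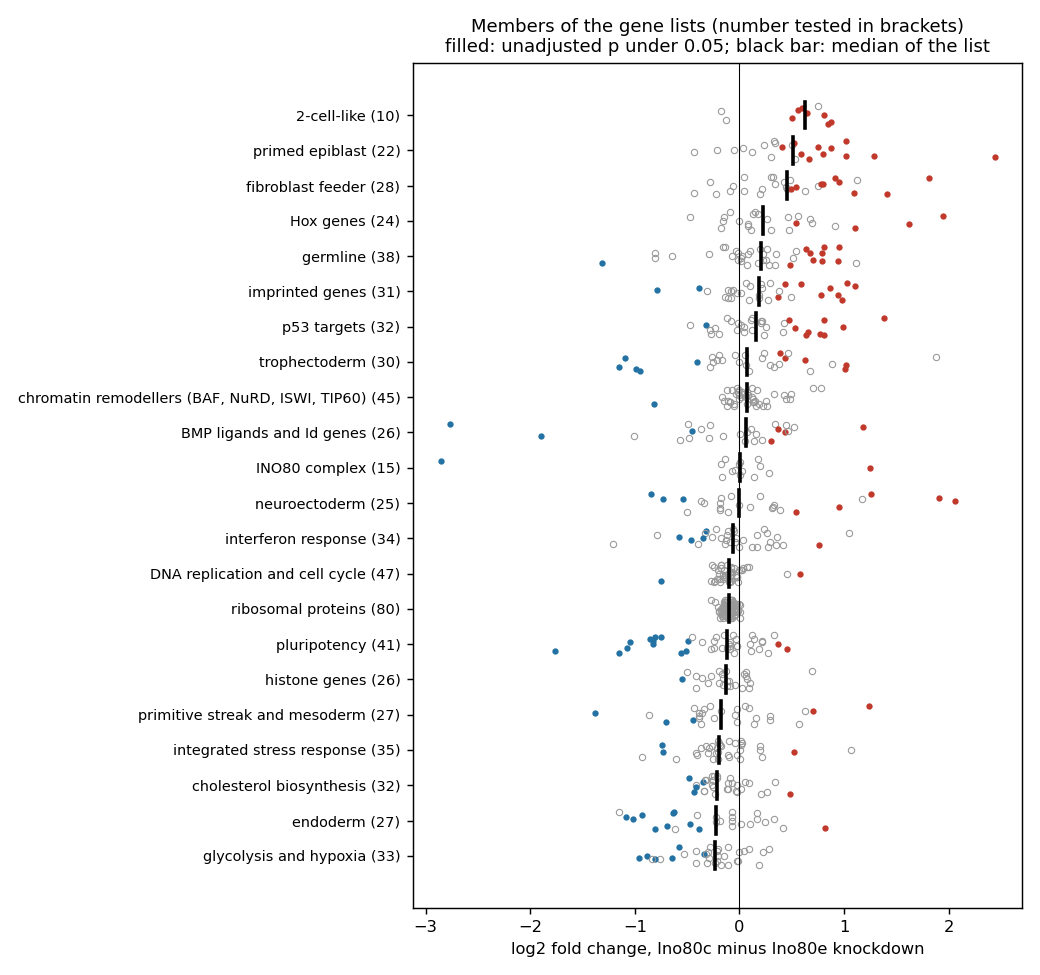
Log2 difference, Ino80c minus Ino80e knockdown (x axis), of each tested member of 22 gene lists (y axis, number tested in brackets), with filled points for an unadjusted p under 0.05 and a black bar at the median of the list. The 2-cell-like, primed epiblast and fibroblast lists lie furthest right, and the endoderm and glycolysis lists furthest left.

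The groups on the other slides were then placed on the line from the Ino80e (0) to the Ino80c (1) level of each gene, as a description with no test. Among the 757 genes lower in the Ino80c knockdown at an unadjusted p under 0.05, the mean level in the Ino80 knockdown was nearer Ino80c for 79.1% and in the Ino80b knockdown for 85.7%, against 56.7% and 55.4% of all genes. NT was nearer Ino80c for 48.9% of them, against 47.8% of all genes. Among the 1454 genes higher in the Ino80c knockdown the shares were 55.3% for Ino80, 55.2% for Ino80b and 22.4% for NT. These higher genes were dimmer, with a median level of -3.62 and 19% not well above background in the Ino80e knockdown, whereas the lower genes had a median level of -0.10 and 0.264% not well above background there.

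Against NT, which lies on another slide so that slide and knockdown cannot be told apart, 1319 genes were called for Ino80c (6.38%) and 0 for Ino80e by limma, with 6317 (30.6%) and 5886 (28.5%) at an unadjusted p under 0.05. Both comparisons share the NT arrays. The median difference of all genes from NT was 0.26 in Ino80c and 0.19 in Ino80e knockdowns, and the differences from NT are given without taking this off. Bmp4 differed from NT by -2.40 ± 0.17 in Ino80c (adjusted p = 0.0134) and by -0.50 ± 0.17 in Ino80e knockdowns (adjusted p = 0.125). Klf4 differed from NT by -1.14 ± 0.20 in Ino80c (adjusted p = 0.0289) and by 0.01 ± 0.20 in Ino80e knockdowns (adjusted p = 0.979). Tbx3 differed by -1.84 ± 0.32 (adjusted p = 0.0289) in Ino80c and by -0.08 ± 0.32 (adjusted p = 0.887) in Ino80e knockdowns. Wnt8a stood on both sides of NT, at 1.70 ± 0.30 (adjusted p = 0.0291) in Ino80c and at -0.74 ± 0.30 (adjusted p = 0.158) in Ino80e knockdowns.

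**Figure D5:**
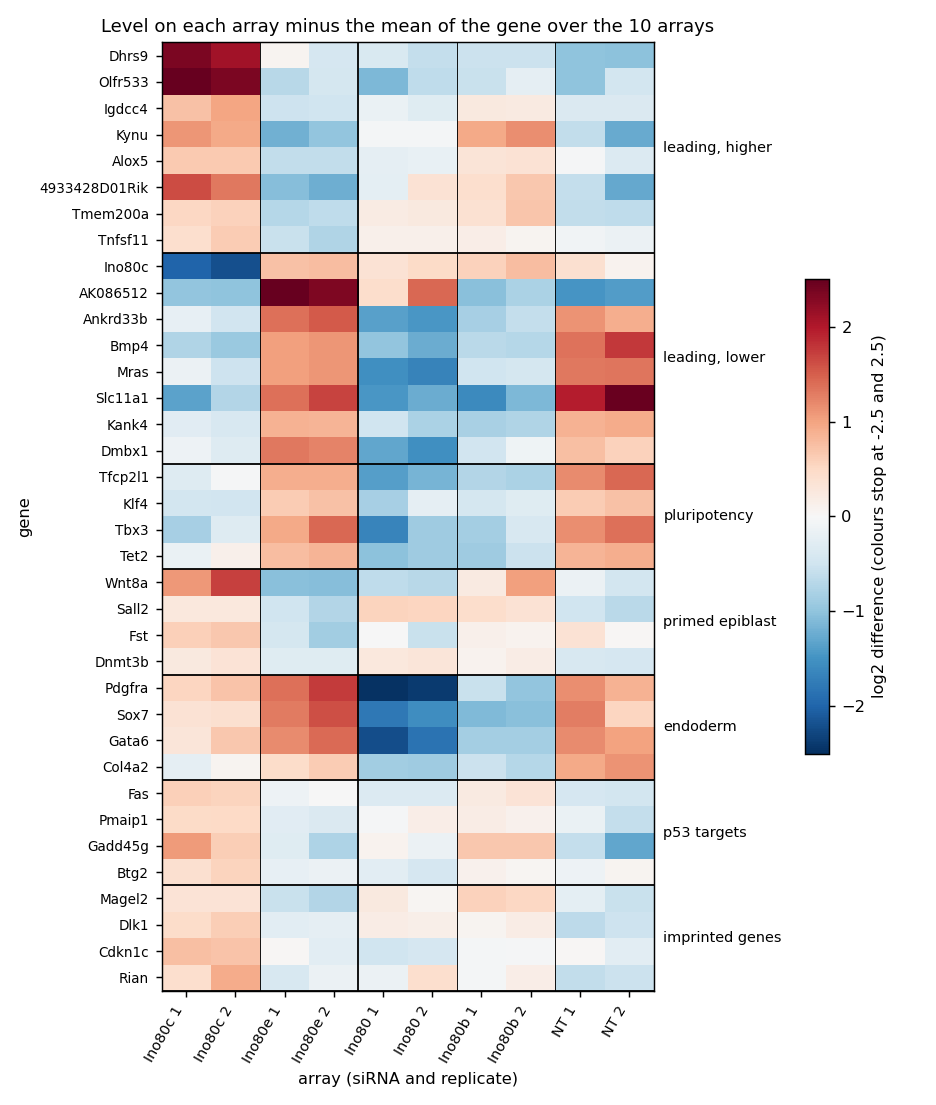
Level of 36 named genes (rows) on each of 10 arrays (columns, siRNA and replicate number) minus the mean of that gene over the 10 arrays, on the log2 scale with colours that stop at -2.5 and 2.5. In most genes of the leading lower and pluripotency blocks the Ino80e and NT columns are red and the Ino80c, Ino80 and Ino80b columns blue.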

How the data were processed

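RNA of 10 J1 samples was hybridised to 1-colour Agilent arrays (green channel, whereas the labels name Cy5). Per the file headers, Feature Extraction 9.5.3.1 gave each spot's intensity as a background-subtracted, detrended signal, not scaled between arrays, with probe coordinates on mm7. The authors' deposited value table (log2) matched the log2 mean signal plus 1 constant per array. Its column medians were 6.76 to 6.87, and the origin of the scaling between arrays stays unknown.

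Control and flagged spots were left out and spots of a probe averaged, which left 41174 probes, 31 of them without a value on some array. The log2 processed signal minus the array's 75th percentile (669 to 942 intensity units) was used. No spot was saturated, and the number of arrays limits the precision. A probe was kept if both arrays of some group had it well above background, which 29587 probes met. The brightest probe stood for each of 20663 genes, named through RefSeq (GRCm38.p6) accessions for 22951 probes, while 18223 kept the array's name. limma 3.58.1 (lmFit, eBayes, R 4.3.3) was fitted to all 10 arrays with group as the only term (5 residual and 2.23 prior degrees of freedom), two-sided with Benjamini-Hochberg adjustment over all genes, after being tested on simulated data. Figures were drawn with matplotlib 3.10.9.

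Named genes were the called ones, then those of smallest unadjusted p up to 8 in a direction, INO80 members and the 4 members of each of 22 lists with the smallest unadjusted p. Other members are named from their lists. The members and lists were chosen with earlier results of these data known, and older names of 4 genes were taken off the lists after values were seen. Alternatives covered background correction, scaling, filter, probe choice, variance model, pairing and left-out arrays.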

Additional observations from a re-analysis of the deposited data

How the results depend on the processing

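The number of called genes (7 as reported) moved in most alternatives. It was 158 with normexp background correction (75 higher and 83 lower), 26 with quantile normalization, 15 with the median of kept probes as scale and 165 with the authors' value table. It was 1 without the filter on dim probes, 78 with only probes well above background on all 10 arrays (50 higher and 28 lower), 7 with the mean of all probes, 129 with a trended, robust prior, 245 with array weights, and 0 when the 4 arrays were fitted alone. Leaving out 1 array gave 0 to 17. Replicate numbers pair samples weakly: over 10 pairs of groups the replicate differences correlated with r of 0.00 to 0.32, 8 of them over 0.1, so the numbers were not taken as pairs. With the replicate block the count was 302 (197 higher and 105 lower), and Ino80e passed the threshold (1.25, adjusted p = 0.041). The Ino80e difference also passed with normexp (1.24, adjusted p = 0.0462). The Ino80c call was lost with the 4 arrays alone (-2.85) and in 3 of the fits that leave out 1 array, over which its difference was -2.95 to -2.76. Single genes were followed through the alternatives only if they were siRNA targets, called, or among those of smallest unadjusted p in a direction. Of these 1 reversed, Dhrs9, at -0.98 without the filter on dim probes, where another probe stands for the gene. The other named list members were not followed singly. The median of ribosomal protein genes relative to all genes was -0.12 as reported and 0.0035 with quantile normalization, that of germline genes 0.19 and -0.0081 without Ino80c replicate 2, and that of integrated stress response genes -0.21 and 0.0034 without Ino80e replicate 2; the cause was not tested. With 2 arrays a group, 5 residual degrees of freedom limit every call.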

Other observations

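The transcript AK043063, chosen after its values were seen, had levels of -2.40 and -3.01 in Ino80c knockdowns. It was not well above background in Ino80e knockdowns (-8.37 and -8.10), so only a bound can be given, at least 10-fold higher in Ino80c knockdowns, and it was not called (limma, adjusted p = 0.059). Its Ino80 arrays stood apart from each other at -5.61 and -8.30, and the NT arrays were at -8.69 and -8.73.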
